A study of Homo sapiens with 12 samples.

Results

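Expression was examined in Ls174T-pTER-β-catenin cells, a derivative of the human colorectal carcinoma line Ls174T engineered so that added doxycycline makes the cells express a hairpin RNA (shRNA) that silences β-catenin. The arrays titled dox1 to dox3, taken after 72 h with doxycycline, were compared with con1 to con3 of the same line, which carried the hairpin construct but received no doxycycline. These are 6 of the 12 arrays of the series, 3 in each group, and they were chosen by their titles and not by any measured value. The other 6 arrays came from another Ls174T derivative, Ls174T-L8, without or with 24 h of induction of a dominant-negative Tcf4, and entered here only to estimate the spread and to choose probe sets. The source label calls the agent an siRNA and the description calls it an shRNA. Only 1 hairpin and 1 line were used, and the labels name neither a control hairpin nor doxycycline given to cells without the construct, so the effects of doxycycline and of the hairpin's loss of β-catenin cannot be told apart. Whether the 3 arrays of each group stem from separately grown dishes is not in the labels, and p-values then measure only the spread between arrays, which may be technical, and 3 arrays per group limit the precision.

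β-catenin is the effector of canonical Wnt signalling. When the destruction complex no longer degrades it, it enters the nucleus, binds TCF/LEF factors and switches on genes that keep cells at the base of the intestinal crypt dividing and undifferentiated. As crypt cells move away from the Wnt source they stop dividing and become absorptive or secretory cells, and colorectal carcinomas usually carry mutations that hold the pathway on. The comparison asks which transcripts of such a carcinoma line change when the hairpin against β-catenin is induced.

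The targeted gene was read first. The brightest of the 3 CTNNB1 probe sets gave signals of 3816, 3961 and 3575 in the uninduced arrays and 173, 163.5 and 132.1 in the induced arrays. The second gave 320, 348.1 and 359.1 before and 18.6, 23.4 and 26.3 after induction. Neither overlapped between the groups (44.6% of all genes tested had no overlap), and the log2 changes were -4.61 ± 0.11 (standard error, as for every log2 change below) and -3.92 ± 0.14. The dimmest probe set gave 61.7, 71.6 and 49.7 before and 51.2, 33 and 42.1 after induction; its values overlapped and its change of -0.54 did not pass (adjusted p = 0.21).

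The line's identity was checked with markers. All 15 markers of colorectal epithelium passed the filter on dim genes, with a summed signal of 26415 to 29233 in the uninduced and 50888 to 58943 in the induced arrays. Not every marker rose with the sum, which bright members dominate. GPA33 fell by 0.48, and EPCAM (-0.09), CDX1 (-0.18) and CDX2 (0.22) did not pass, while the other markers of this type were called higher. Of the markers of other cell types, 5 of 10 for fibroblasts, 2 of 9 for leukocytes, 2 of 7 for endothelium and 4 of 8 for liver passed it. Their summed signals stayed between 72.6 and 196.8 for the first 3 types. The leukocyte sum separated the groups, with 81 to 86.1 before and 97.7 to 134.9 after induction, and so did the liver sum, with 343.7 to 368.8 and 392.3 to 395.5. LYZ, lysozyme, a leukocyte marker that gut epithelium also makes, was below the filter and its geometric mean went from 5.56 to 46.1, while PTPRC, the pan-leukocyte antigen CD45, was at 5.88 and 1.43. The part of other cells in any result was not tested. LUM, a fibroblast proteoglycan, rose from 4.52 to 17.3 (not passing in a fit to the 6 arrays alone), and SERPINA1, a protease inhibitor made by liver and gut epithelium, rose from 63 to 95.9; the other markers of these 4 types that were above the filter had no change that passed. In bulk samples such as these, more cells of a type and more RNA per cell cannot be told apart.

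Many genes changed in each direction after induction, and the largest changes were increases. Of 12386 genes tested with limma, 34% passed an adjusted p under 0.05, 16.6% (2059 genes) higher and 17.4% (2158) lower after induction, and these shares are the background for every list below. The median log2 change over all genes tested was 0.02, with quartiles of -0.32 and 0.34. Changes of at least 2-fold were about equally frequent in each direction, 4.3% higher and 4.32% lower. Large increases outnumbered large decreases. At least 4-fold were 122 increases and 59 decreases, at least 8-fold 40 and 6, and at least 16-fold 17 and 1, the decrease being CTNNB1 itself. The first principal component of the 6 arrays held 44.4% of the variance and separated the groups. Correlations between arrays were 0.958 to 0.966 among uninduced, 0.958 to 0.961 among induced and 0.928 to 0.934 across groups, and median signals ran from 12.8 to 15.3.

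**Figure D1:**
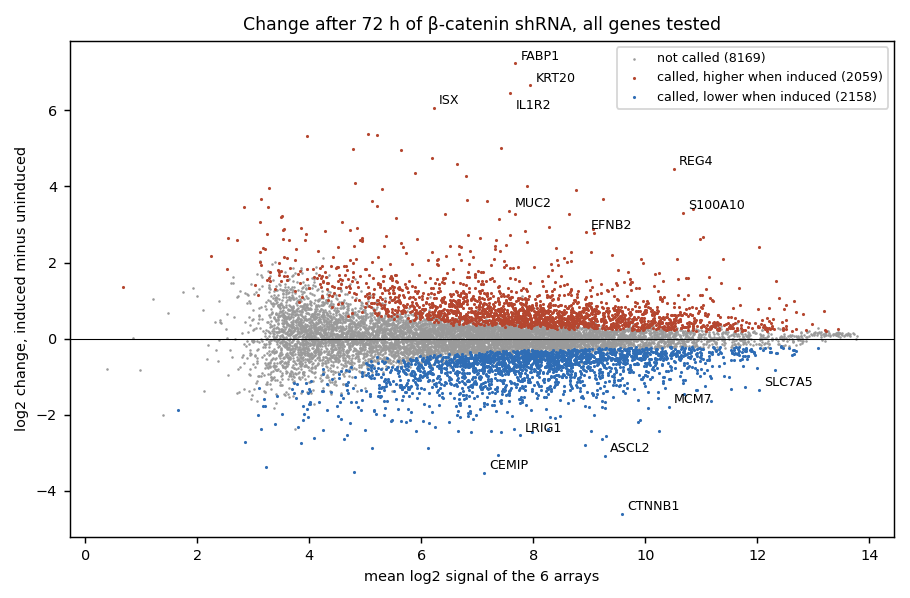
Log2 change after induction (vertical axis) against the mean log2 signal of the 6 arrays (horizontal axis) for the 12386 genes tested, with 2059 called higher in red and 2158 called lower in blue. The largest increases lie further from 0 than the largest decreases, and CTNNB1 is the lowest point at -4.61.

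The 24 largest increases among genes that passed the filter and whose groups did not overlap, a condition of their choice, ranged from 3.62 to 7.23 on the log2 scale. REG4, a lectin-like protein secreted by goblet and endocrine cells of the gut, read 274.8, 301.2 and 356.6 in the uninduced arrays and 6248, 7103 and 7211 in the induced arrays (log2 change 4.47 ± 0.09, adjusted p = 6.25e-15). The induced arrays lay far above the uninduced arrays, and its other 2 probe sets rose by 4.69 and 5.63. IL1R2, the decoy receptor of interleukin 1, went from 19.2, 19.3 and 23.2 to 1502, 1847 and 2126. PLAC8, a small cysteine-rich protein, went from 12.5, 14.3 and 12.6 to 244, 283.1 and 279.1. COXFA4L3, a small mitochondrial protein, went from 26.7, 12.7 and 24.2 to 486, 489 and 491, so that the 3 induced arrays nearly coincided. GCNT3, the enzyme that builds the branched cores of mucin sugars, rose 12.5-fold from 28.9, 25.8 and 43.8 to 365, 360.4 and 490.4. CDKN2B, the inhibitor of CDK4 and CDK6 also called p15, rose 15.4-fold from 10.4, 10.6 and 9.3 to 143.1, 181.8 and 142.7. FABP1, which binds fatty acids in enterocytes, had the largest increase among genes that passed the filter, from 18.3, 21.6 and 11.7 to 2018, 2660 and 2941 (log2 change 7.23 ± 0.23), although its other probe set gave 3.48. KRT20 rose by 6.66, ISX by 6.06, TNNC1 by 5.38, IL33 by 5.34, TM4SF4 by 5.33, AKR1B10 by 5.00, TFF2 by 4.98, ARL14 by 4.96, CA1 by 4.76, ZBTB7C by 4.08, TFF1 by 4.02, AADACP1 by 3.97, TRIM31 by 3.67 and ZG16 by 3.62. Dimmer probe sets of CA1 (1.61) and ZBTB7C (2.44) did not pass. Another TRIM31 probe set did not pass either (2.57), and a further one did (2.58). TM4SF4, AADACP1, TRIM31 and TFF2 had uninduced geometric means of 2.45, 2.45, 2.47 and 4.89, below the filter signal of 10.2. So did, among others, TNNC1 (5.15), IL33 (5.80) and ZBTB7C (6.88). These genes passed the filter through other arrays, and the sizes of their increases are uncertain. UGT2B28, UGT2B17 and UGT2B15, glucuronosyltransferases that clear steroids, rose by 4.26, 3.89 and 3.68, and their sequences are so alike that the probe sets may not separate them.

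ADH1C, a class I alcohol dehydrogenase of gut mucosa and liver, was below the filter because that was set on all 12 arrays. Its signals were 1.5, 1.2 and 3.2 before and 362.5, 292.8 and 238.2 after induction, so that no uninduced array rose clearly above the floor of 1. With the filter set on the 6 arrays of the line, a choice made after seeing the data, its change was 7.36 ± 0.84 (adjusted p = 4.07e-06), or 55.0-fold once an offset of 3.5 was added to every signal. ADH1C entered through its high induced arrays, so its choice favoured a separation of its groups and its p-value lends no support. That filter let in 424 further genes, of which 8 rose and 1 fell.

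Among the 24 largest decreases were genes known to act in crypt stem cells or in Wnt and BMP signalling. EPHB3, a receptor that positions cells in the crypt, went from 1656, 1513 and 1384 to 274.7, 244 and 260 (log2 change -2.55 ± 0.11, adjusted p = 3.73e-11). LRIG1, a stem cell protein that restrains ERBB receptors, went from 501.2, 561 and 505.3 to 102.2, 97.8 and 72.2. ID3, a dominant-negative helix-loop-helix protein induced by BMP, fell by 2.63 from 1369, 1392 and 1749 to 253.4, 224.1 and 244.8. RGMB, a co-receptor for BMP ligands, fell by 2.42, and BGN, the matrix proteoglycan biglycan, by the same amount. DTL, a substrate receptor of the ubiquitin ligase that removes licensing factors, fell by 2.45, and SKA1, which couples kinetochores to microtubules, fell by 2.42. The 24 decreases were chosen among genes whose groups did not overlap. C2CD4A fell by 2.44 and ELAPOR1 by 2.43. CEMIP (-3.52), RETNLB (-3.49), DEFA6 (-3.36), ASCL2 (-3.07), ACSL5 (-3.06), LRP4 (-2.89), PNMA3 (-2.88), TMEM80 (-2.78), GPR3 (-2.75), DEPDC1-AS1 (-2.73) and B3GAT1 (-2.64) also belong to this group. A dimmer probe set of PNMA3 gave 0.27 and did not pass. Dimmer probe sets of LRIG1 (-1.65, -1.57 and -0.78), BGN (-1.92) and ELAPOR1 (-1.47) were also lower but did not pass. Other dimmer sets of BGN (-1.79) and ELAPOR1 (-2.19) passed. B3GAT1 did not pass without uninduced array 1 (-2.66) or 2 (-2.58) or without induced array 1 (-1.85) or 3 (-2.42). UBE2G2, a ubiquitin-conjugating enzyme of the endoplasmic reticulum, fell with 3 of its 4 probe sets (-2.45, -2.68 and -1.57), while the fourth did not pass (-0.01). HAS3, a hyaluronan synthase, fell by 2.62 and by 1.61 without induced array 1, where its signal was 1.7. Another HAS3 probe set gave -0.32 and did not pass. CBX7, a Polycomb protein, read 64.8, 67.2 and 54.7 before and 45.6, 1.6 and 16.5 after induction; its change of -2.54 rests on widely spread values, was -1.18 without induced array 2 and did not pass without a variance trend (adjusted p = 0.0589).

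Of 276 transcriptional regulators in the lists below, 172 were tested. Of these 36 rose and 29 fell, with a median change of 0.01. These counts are near the shares over all genes tested (16.6% higher and 17.4% lower). Single factors moved far in each direction. ISX, the intestine-specific homeobox factor that controls vitamin A uptake, went from 9.6, 8.4 and 9.4 to 576.8, 660.4 and 596.4 (6.06 ± 0.27, adjusted p = 7.72e-11). SPIB, an ETS factor required for M cells, went from 15.1, 13.6 and 6.6 to 144.4, 90.8 and 149. KLF6 went from 175.4, 170 and 209.6 to 801.5, 1001 and 908.6, and KLF4, which goblet cells need and which arrests division, from 1384, 1287 and 1494 to 3284, 3306 and 3719. No array of either group crossed into the other in these 4 genes, as in 44.6% of all genes tested. ELF3, an epithelial ETS factor that promotes enterocyte and goblet maturation, rose 3.66-fold from 168.5, 122.9 and 120.6 to 485.2, 482.6 and 522.7. SPDEF, the factor that completes goblet cell maturation, rose 3.02-fold from 48.4, 54.9 and 45.2 to 128.3, 170.5 and 150.9. HNF4G, a nuclear receptor of enterocytes, rose by 1.34, and NR3C2, the mineralocorticoid receptor, by 1.95. MXD1, a partner of MAX that opposes MYC, rose by 1.46, BHLHE41, a repressor in the circadian clock, by 2.86 and KLF9 by 1.10. SOX30 rose by 2.14 (adjusted p = 0.0325), but it did not pass without uninduced array 2 (1.79) or 3 (2.06), or without induced array 1 (2.31), 2 (1.97) or 3 (2.13).

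Downward, ASCL2 led with signals of 1986, 1946 and 1523 before and 233, 248.5 and 170.4 after induction. MYBL2, the MYB protein that activates mitotic genes, went from 510.6, 537.7 and 355.7 to 74.7, 89.4 and 102.3 (-2.39 ± 0.16). FOXM1, the forkhead factor of the G2 programme, went from 547.1, 511.1 and 479.7 to 157.1, 180.8 and 191.1 (-1.54 ± 0.13). The groups were separate in all 3 of these genes (44.6% of all genes tested had no overlap). E2F7, E2F2, E2F8 and E2F1, which set the timing of S-phase genes, fell by 1.68, 1.51, 1.33 and 1.09, and RBL1, a pocket protein that binds E2Fs, by 1.20. ETS2 fell by 1.55, by 2.76 with a probe set that is neither _x_at nor _s_at, MYCL by 1.44 and HES6, a Notch pathway factor, by 1.37. NR4A1, an immediate-early nuclear receptor, fell by 1.85, but the probe set chosen on the 6 arrays alone gave -0.61 and did not pass. MYBL1 fell by 1.42 (adjusted p = 0.0208), and did not pass without uninduced array 1 (-1.33) or 3 (-0.98), without induced array 1 (-1.14), or with the probe set chosen on the 6 arrays (-0.17).

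**Figure D2:**
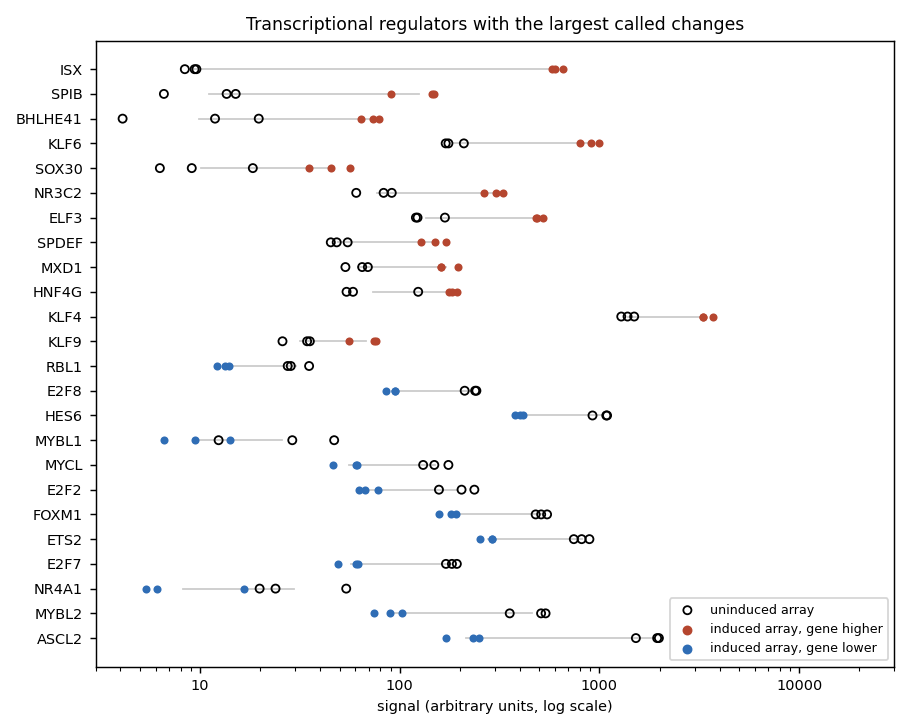
Signal of each array on a log axis for the 12 regulators with the largest called increase and the 12 with the largest called decrease. Open circles are uninduced and filled circles induced arrays. The groups overlap only for MYBL1, and 44.6% of all genes tested had no overlap.

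By family, the intestinal identity factors held 6 that rose and 1 that fell among 15 tested (median 0.42). GATA6, a zinc finger factor of gut epithelium, rose from 938.4, 927 and 874.8 to 1352, 1590 and 1366, and FOXA1, which opens chromatin in endodermal cells, by 0.63, whereas its relative FOXA2 fell by 1.01 from 196.8, 216.2 and 157 to 92.8, 117.7 and 75.2. Neither caudal factor that specifies intestine passed. CDX1 read 1018, 1118 and 1005 before and 874.8, 911.2 and 986 after induction, and CDX2 356.1, 337.6 and 328.7 before and 399.1, 357.6 and 438.4 after, with changes of -0.18 (adjusted p = 0.15) and 0.22 (adjusted p = 0.328). ATOH1, the factor that commits cells to the secretory lineage, did not pass either (-0.34, adjusted p = 0.603). Among 20 Krüppel-like and SP factors 7 rose and 1 fell (3 fell without induced array 2). Besides KLF6, KLF4 and KLF9 these included KLF7 (1.10), KLF3 (0.63) and KLF5 (0.59), a factor of proliferating crypt cells. The ETS list held 6 increases and 2 decreases among 21. Of 21 E2F, DP, RB and DREAM factors none rose and 9 fell, among them TFDP1, the DNA-binding partner of the E2Fs, which fell by 0.67. In the network around MYC 2 rose and 5 fell among 13. MYC itself went from 2120, 2300 and 2276 to 1112, 1099 and 1156 (-0.99 ± 0.09), while MXI1, another MYC antagonist, rose by 0.95 from 637.4, 635.9 and 681.2 to 1218, 1313 and 1249. Without uninduced array 1 or induced array 2 only 3 members of that network fell. Nuclear receptors divided into 5 that rose and 3 that fell among 26 (19.2% and 11.5%, against 16.6% and 17.4% of all genes tested). NR1H3, a sterol sensor, was at 0.76 and PPARD, a fatty acid sensor, at -0.88. The forkhead list (3 up and 4 down of 22, or 13.6% and 18.2%, near the shares over all genes) held FOXQ1, which rose by 1.02, beside FOXM1. HOX genes rose in 3 of 10, HOXB7 among them (0.70), and none fell. SOX4 and SOX9, factors of crypt progenitors, fell by 0.73 and 0.63. In the circadian list (3 up and 2 down of 15, or 20% and 13.3%, near the shares over all genes) NFIL3 fell by 0.79.

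Absorptive cells carry a brush border of microvilli bundled by actin-binding proteins. Of 26 genes for its structure 13 rose and 1 fell (median 0.52). VILL, a relative of villin, went from 33.6, 29.7 and 21.1 to 261.3, 251 and 299 (3.29 ± 0.16, adjusted p = 2.74e-10). PLS1, the plastin that bundles microvillar actin, went from 591.3, 663.1 and 889.1 to 2113, 1718 and 1710, and EPS8L3, a microvillar tip protein relative, from 151.6, 123.8 and 118.5 to 272.2, 270 and 284.5. In these 3 the groups were apart, as in 44.6% of all genes tested. EZR, which ties the membrane to actin, rose by 0.93, or by 2.33 with a probe set that is neither _x_at nor _s_at, and NHERF1, its scaffold partner, by 0.73. MYO7B, the motor of the microvillar tip links, rose by 2.91, and by 1.87 without uninduced array 3, where it read 2.5. VIL1, villin itself, was near the threshold (0.28, adjusted p = 0.0438) and did not pass with uninduced array 1 (0.27), 2 (0.28) or 3 (0.31) or induced array 2 (0.30) or 3 (0.21) left out. CDHR2 and USH1C, components of the tip links, had changes of -0.05 and 0.29 that did not pass.

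The digestive enzymes of the brush border were mostly not measurable. Of 22 hydrolases and peptidases 14 were below the filter, sucrase-isomaltase (SI) and lactase (LCT) among them, and of 6 tested only DPP4, a dipeptidyl peptidase, rose, from 89.1, 121.4 and 105.2 to 373.6, 444.8 and 323.9. In lipid uptake 9 rose and 3 fell of 20 tested (median 0.34). MTTP, which loads lipid onto nascent chylomicrons, went from 12, 12.1 and 14.1 to 85.6, 73.2 and 68.1, and DGAT1 and ACSL1, enzymes of triglyceride and acyl-CoA synthesis, rose by 0.67 and 0.64. ACSL5, another acyl-CoA synthetase of enterocytes, went the other way, from 518.3, 496.3 and 432.6 to 58.7, 70.8 and 45.9, and DGAT2 fell by 0.51.

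Of 26 genes for transport of ions, water and bicarbonate 7 rose (26.9%) and 4 fell (15.4%), against 16.6% and 17.4% of all genes tested. The carbonic anhydrases CA1, CA13 and CA12 rose by 4.76, 1.64 and 1.04, CA1 from 9.6, 12.6 and 22.7 to 387.2, 284.8 and 491.8, and AQP3, a water and glycerol channel of surface cells, by 1.61. KCNK5, a potassium channel, rose by 1.46. SLC12A2, the chloride importer of secreting crypt cells, fell by 1.17 from 2354, 2264 and 2723 to 1398, 1047 and 872.1, and KCNQ1, the potassium channel that supports chloride secretion, by 0.71. Without uninduced array 1 or 3, or induced array 2, the count of decreases in this list was 2.

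Of 30 sugar, amino acid, peptide and vitamin carriers 6 rose (20%) and 9 fell (30%), against 16.6% and 17.4% of all genes tested. SLC7A7, which exports basic amino acids at the basolateral side, went from 68.7, 59.2 and 70.3 to 626.2, 635.4 and 635.9 (3.26 ± 0.14, adjusted p = 6.76e-11), and its 3 induced values were nearly equal. SLC7A5, the leucine transporter LAT1, went from 7212, 6967 and 5833 to 2664, 2627 and 2591, and its heavy chain SLC3A2 from 1633, 1611 and 1491 to 669, 694.1 and 627. SLC1A4 and SLC1A5, carriers of neutral amino acids, fell by 1.47 and 0.86, and SLC19A1, the folate carrier, by 1.13. Carriers of the apical membrane fell as well: SLC3A1 by 1.53, SLC6A19 by 1.39 and the glucose transporter SLC5A1 by 1.31. Without uninduced array 2 or induced array 3 the count of increases was 3.

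Goblet cells secrete gel-forming mucins together with trefoil peptides and other small proteins. Of 29 genes for granules and mucus 18 rose and 3 fell (median 0.996, against 0.02 over all genes). Trefoil peptides, which stiffen mucus, all rose: TFF1 from 51.7, 67.6 and 59 to 761.1, 1124 and 1025, TFF2 from 4.5, 6.5 and 4 to 125.8, 158.1 and 183.2, and TFF3 from 1043, 1203 and 872.3 to 2046, 2445 and 2351. SPINK4, a protease inhibitor of goblet granules, went from 207.8, 192.6 and 207.3 to 677.8, 783.1 and 1076, and FCGBP, which crosslinks mucin, from 119.7, 130.1 and 212 to 787.3, 775.3 and 761.4. AGR2, a disulfide isomerase needed to fold MUC2, rose by 0.996 and its relative AGR3 by 1.61, ZG16B by 1.46 and RAB27B, a GTPase of secretory granules, by 1.30. RAB27A, its close relative, fell by 0.69, and RETNLB, a resistin-like goblet protein, went from 103.9, 82.2 and 97.4 to 17, 3 and 11.4. Every group pair named here was without overlap, as were 44.6% of all genes tested.

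Mucins rose in 5 of 12, and none fell (median 0.60). MUC2, the gel-forming mucin of the colon, went from 38.6, 80.8 and 67.3 to 613.2, 624.5 and 584.3 (3.35 ± 0.23, adjusted p = 1.15e-08). MUC5AC, the mucin of the stomach surface, went from 100.9, 97.9 and 96.5 to 540.3, 625.3 and 545.5, although the probe set used without _x_at and _s_at sets gave only 0.97. MUC17 and MUC13, transmembrane mucins of the gut, rose by 2.36 and 0.43, and MUC5B (0.95, adjusted p = 0.12) and MUC1 (0.77, adjusted p = 0.373) did not pass. Enzymes that build O-linked sugars rose in 12 of 37 and fell in 3. Beside GCNT3, B3GALT4 rose by 1.56, ST6GALNAC1, which makes the sialyl-Tn antigen, by 1.23, and the initiating enzymes GALNT5 and GALNT7 by 1.12 and 0.81, whereas GALNT11 fell by 1.20 and GALNT6 by 0.52.

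Of 10 tested genes of gastric surface and glands 6 rose and none fell (median 1.15). Dim genes pass the filter through their high induced arrays, and over all 21 measured members without the filter the median was 0.21 (0.68 over 8 genes without _x_at and _s_at probe sets). SULT1C2, a sulfotransferase of stomach mucosa, went from 14.1, 16.4 and 22.2 to 72.1, 70.3 and 68.4, and the calpains CAPN8 and CAPN9 of gastric pit cells rose by 1.86 and 1.21. CLDN18 and PGC, a tight junction protein and a pepsinogen, had changes of -0.57 and -0.42 that did not pass. Of the 10 keratins tested 8 rose and none fell (median 1.28; 0.53 over 21 without the filter and 0.82 with the filter from the 6 arrays). KRT20, of mature surface epithelium, went from 34.4, 20.5 and 20.8 to 2403, 2011 and 3143, KRT19 from 950.2, 854.4 and 667.1 to 4534, 4866 and 5563, KRT8 from 1563, 1754 and 1417 to 3744, 4749 and 4575 and its partner KRT18 from 7404, 7384 and 6308 to 9346, 8368 and 9850. KRT80 rose by 1.52, and KRT7 by 1.10 with its _s_at probe set but by 0.05, not passing, with another.

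Other epithelial lineages gave little signal. Of 27 enteroendocrine genes 20 were below the filter and 4 were tested; DDC, which makes serotonin and dopamine, rose from 627.8, 480.8 and 628.3 to 1058, 875 and 989.9, and VGF, GHRL and MLN did not pass. Of 8 tested tuft cell genes 2 rose and 1 fell. ANXA4 rose by 1.15 and BCL2L14 by 2.71, and IL17RB, the receptor for interleukin 25, fell by 1.55 from 221.8, 179.2 and 230.2 to 77.6, 83.5 and 56.4. In the list for M cells and BEST4+ cells 3 of 11 rose and 2 fell, SPIB by 3.50 (1 rose without uninduced array 2), while GUCA2A and GUCA2B, the guanylins, had changes of 1.13 and -2.01 that did not pass (adjusted p = 0.24 and 0.0669).

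**Figure D3:**
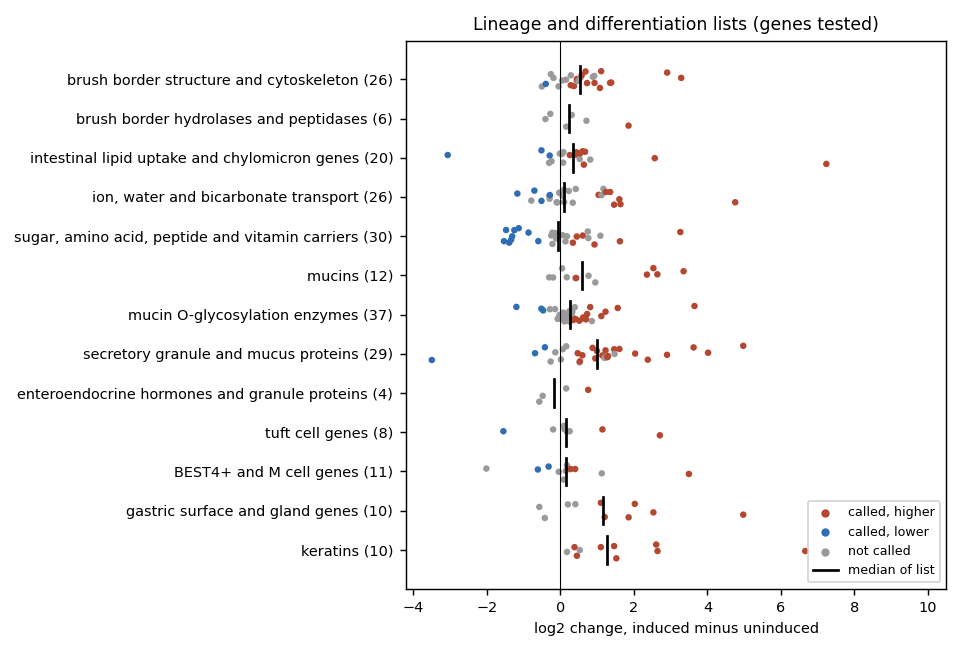
Log2 change of every tested member of 13 lineage lists, with the number tested in brackets, called increases in red, called decreases in blue, other genes in grey and the median of each list as a black bar. The medians of keratins (1.28), gastric genes (1.15) and granule and mucus proteins (0.996) lie furthest to the right; without the filter they were 0.53, 0.21 and 0.97.

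In the ERBB family 5 of 12 rose and 3 fell. The ligands BTC, HBEGF, TGFA and EREG rose by 1.50, 1.20, 0.73 and 0.71, while the receptors EGFR and ERBB3 fell by 0.86 and 0.67. BTC, betacellulin, went from 24.3, 28.9 and 18.9 to 74.7, 96.3 and 42.1, and ERBB3 from 886.3, 942.4 and 873.7 to 547.5, 624.7 and 530.3. For EGFR another probe set, neither _x_at nor _s_at, gave -0.52. Insulin and growth factor genes rose in 4 of 20 (20%) and fell in 2 (10%), against 16.6% and 17.4% of all genes tested. IRS1, the adaptor of insulin and IGF receptors, went from 83.4, 85 and 97.3 to 367.7, 410.3 and 311 (2.03 ± 0.17, adjusted p = 1.57e-07), IGF2R, which clears IGF2, rose by 0.86 and FGFR4 fell by 1.10.

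Hippo signalling restrains the coactivator YAP, which acts through TEAD factors. In this list 8 of 24 rose and 3 fell (median 0.22). NT5E, the ectonucleotidase CD73, went from 206.9, 179.9 and 200.7 to 438.5, 492.7 and 456.9, and CRIM1, MOB1B, LATS2 and AJUBA rose by 0.82, 0.66, 0.62 and 0.40, MOB1B and LATS2 being parts of the kinase core. TEAD2 fell by 1.30 from 239, 208.3 and 237.1 to 83.6, 108.1 and 87.2, TEAD4 by 0.43 and NF2, the upstream activator, by 0.48. CCN2, a classical YAP target, rose by 2.08 (adjusted p = 0.03) but did not pass without uninduced array 3 (0.96), which read 1.4, or without induced array 1 (2.01) or 2 (1.75).

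Hedgehog genes changed in 2 of 11. IHH, the ligand made by surface epithelium, rose from 8.7, 18.4 and 4.5 to 25.1, 38.3 and 32.8, and PTCH1, its receptor, fell by 0.76. The list for NF-κB and chemokines held 3 increases and 3 decreases among 22, close to the background, with NFKBIZ, an inducible nuclear regulator, at 1.19 and IL32 at 0.70; the count of decreases was 1 without uninduced array 1 or 2 or induced array 1. Among prostaglandin genes 4 rose and 3 fell of 18 (22.2% and 16.7%, against 16.6% and 17.4% of all genes tested). HPGD, which inactivates prostaglandins, went from 26.9, 13.9 and 28.8 to 90.4, 67.9 and 102.7, and AKR1C3, which also reduces prostaglandin D2, rose by 2.09. Of the decreases in this list 1 was left without uninduced array 2 or 3 or induced array 3.

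At the cell surface the S100 proteins and annexins, calcium-binding proteins that meet at the inner membrane, stood out by count. Of 18 tested 15 rose and 1 fell (median 0.82). S100A10 went from 533.1, 597.2 and 437.8 to 4786, 5024 and 5517 (3.30 ± 0.11, adjusted p = 1.47e-12), and its binding partner ANXA2 from 2121, 1979 and 2111 to 5088, 4960 and 5595. S100A11, S100A6, S100P and S100A4 rose by 1.24, 0.89, 0.80 and 0.68, and ANXA3 and ANXA1 by 1.66 and 1.60. ANXA13, an annexin of intestinal epithelium, was the member that fell, from 58.9, 59.4 and 45.3 to 10, 22.5 and 17.3. Of 25 CEACAMs, tetraspanins and epithelial antigens 10 rose and 5 fell. CEACAM6 went from 201.9, 195.7 and 227 to 1197, 1583 and 1480, CEACAM5, the carcinoembryonic antigen, from 463, 512.3 and 445.3 to 1751, 2040 and 2245 and TSPAN1 from 480.4, 488.9 and 523.3 to 1769, 1819 and 2388. TSPAN5 fell by 1.45 and CD81 by 0.57.

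Eph receptors and ephrins sort crypt cells by repulsion. Of 16 tested 2 rose and 4 fell. The ligand EFNB2 went from 171.1, 185.8 and 204.3 to 1158, 1358 and 1369 (2.79 ± 0.09, adjusted p = 2.15e-12), opposite to its receptor EPHB3, and EPHA4 and EFNA4 fell by 1.51 and 0.92. Laminins, collagens and matrix proteases rose in 9 of 26 and fell in 1. The laminin chains LAMB2, LAMB3 and LAMC1 rose by 1.69, 1.43 and 0.91, the basement membrane proteoglycan HSPG2 by 1.07 and the protease inhibitor TIMP1 by 0.995. Integrins rose in 3 of 18 (16.7%) and fell in 1 (5.56%), against 16.6% and 17.4% of all genes tested. ITGAV (0.72) and ITGB4 (0.53) were among those that rose, and ITGAE fell by 1.01 from 1026, 968.8 and 963.8 to 484.4, 474.6 and 514.9. Genes for MHC class I and its peptides rose in 10 of 22 and none fell, all by less than 2-fold. B2M, the light chain, went from 3982, 4008 and 3582 to 5839, 5242 and 5767 (0.54 ± 0.07). That count was 6 without induced array 2 (without uninduced array 3, 2 genes fell) and 2 with each array centred on its median, so it depends on the scaling.

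Most members of the cell cycle lists fell. Of 32 genes for origin licensing and the replicative helicase 26 fell and none rose, with a median of -1.19. ORC1, the largest subunit of the origin recognition complex, went from 163.5, 217.9 and 225.5 to 57.9, 42.5 and 50.1 (-2.01 ± 0.20, adjusted p = 1.07e-06). MCM7, a helicase subunit, went from 2621, 2701 and 2345 to 675.5, 766.1 and 763.5 (-1.80 ± 0.10, adjusted p = 7.86e-10). MCM5, MCM2 and MCM6 fell by 2.00, 1.62 and 1.11, and the loading factors TICRR, CDT1 and CDC45 by 2.40, 1.78 and 1.76. Of 35 genes of cohesin, condensin and centromeres 26 fell and none rose (median -0.92). NCAPH, a condensin subunit, went from 257.3, 241.9 and 255.6 to 63.8, 43.9 and 88.7, NCAPG from 245.3, 283.1 and 318.1 to 139.7, 100.1 and 88.6, and CENPA, the centromeric histone, from 362.3, 296.5 and 267.8 to 101.3, 107 and 156.4. The cohesin subunits SMC1A and RAD21, which cells need outside mitosis too, fell less, by 0.54 and 0.44. Homologous recombination and Fanconi genes fell in 18 of 29 and rose in 1. EXO1, a nuclease that resects DNA ends, went from 158.4, 160 and 135.7 to 27.1, 37.7 and 33.8, and RAD54L, FANCG and BRIP1 fell by 1.90, 1.85 and 1.50.

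Of 31 cyclins, cyclin-dependent kinases and inhibitors 23 fell and 4 rose. CDC25A, the phosphatase that fires CDK2, went from 243.3, 211.8 and 183.4 to 71, 57.2 and 60.3, and CDK1, CDK2, CDK4, CCNE2, CCND1 and CCND2 fell by 1.36, 1.14, 0.62, 1.02, 0.88 and 0.76. The inhibitors were not uniform. CDKN2B rose as given above, while CDKN1C, the inhibitor p57, fell by 2.00 from 87.5, 85.6 and 71.2 to 22.7, 22.8 and 16.1. CDKN1A, p21, had a fall of 0.36 at the edge of the test (adjusted p = 0.0296) and did not pass without uninduced array 1 (-0.35) or 2 (-0.29), without induced array 1 (-0.32) or 2 (-0.35), or with median centring (-0.41). CCNG2, a cyclin of resting cells, rose from 535, 593.8 and 526.1 to 1254, 1266 and 1085. In the BCL2 family 3 rose and 4 fell of 17, near the shares over all genes; BCL2L14 had the largest change and rose by 2.71, and PMAIP1 and BOK, promoters of cell death, fell by 1.42 and 1.23.

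The promoters of these genes were read for short motifs known from the factors above, on both strands of the 250 bases before the gene start (RefSeq, build GRCh38.p14), which were at hand for 10088 of the genes tested. The sequences below show 1 promoter each of an origin gene and a helicase gene with an E2F motif, in capitals (TTCCCGC or TTGGCGC, or the reverse complement). They lie on chromosome 1 at chr1:52404424-52404673 and on chromosome 7 at chr7:100101398-100101647, both on the minus strand, and end at the base before the gene start.
ORC1: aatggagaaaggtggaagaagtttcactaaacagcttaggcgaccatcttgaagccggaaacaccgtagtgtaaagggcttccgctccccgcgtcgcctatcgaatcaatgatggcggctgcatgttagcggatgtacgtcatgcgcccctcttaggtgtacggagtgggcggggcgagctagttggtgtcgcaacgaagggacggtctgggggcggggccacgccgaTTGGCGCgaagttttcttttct
MCM7: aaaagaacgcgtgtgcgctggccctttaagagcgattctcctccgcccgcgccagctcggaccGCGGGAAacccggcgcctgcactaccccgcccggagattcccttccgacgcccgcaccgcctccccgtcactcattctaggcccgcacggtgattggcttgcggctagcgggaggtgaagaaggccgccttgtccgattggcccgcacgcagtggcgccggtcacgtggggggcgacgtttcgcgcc
For 2 mitotic genes the capitals mark the cell cycle homology region (CHR, TTTGAA), through which the DREAM and MYBL2 complexes act. These windows are chr4:17810729-17810978 for NCAPG and chr2:26785806-26786055 for CENPA, both on the plus strand. Both also hold the E2F motif TTCCCGC, left in lower case.
NCAPG: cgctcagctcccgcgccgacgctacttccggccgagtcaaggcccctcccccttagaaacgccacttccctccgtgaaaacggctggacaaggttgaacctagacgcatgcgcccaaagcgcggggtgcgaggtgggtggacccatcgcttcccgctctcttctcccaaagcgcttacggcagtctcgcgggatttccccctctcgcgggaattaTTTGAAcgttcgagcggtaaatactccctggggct
CENPA: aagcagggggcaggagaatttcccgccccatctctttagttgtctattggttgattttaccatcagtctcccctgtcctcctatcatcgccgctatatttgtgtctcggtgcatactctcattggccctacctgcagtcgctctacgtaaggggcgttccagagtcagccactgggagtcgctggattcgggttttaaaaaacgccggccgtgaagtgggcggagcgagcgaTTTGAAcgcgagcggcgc

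E2F motifs were in 12.5% of the promoters of genes tested and in 7.95% of all 27305 promoters of the table. Among genes called and at least 2-fold lower after induction 20.1% had one (87 of 432), and among those at least 2-fold higher 7.67% (32 of 417). An E2F motif was in 9 of 27 promoters of the licensing list and in 7 of 28 of the cohesin, condensin and centromere list. It was in 8 of 26 of the homologous recombination and Fanconi list. For xenobiotic, bile acid and retinoid enzymes it was 0 of 24, and for granule and mucus proteins 1 of 19. The CHR was in 8.62% of promoters of genes tested (13.6% of all), in 16.4% of those at least 2-fold lower and in 8.63% of those at least 2-fold higher, in 7 of 28 of the cohesin, condensin and centromere list and in 0 of 27 of the licensing list. Lists with more increases than decreases held it too, in 5 of 24 promoters of xenobiotic, bile acid and retinoid enzymes and in 4 of 19 of granule and mucus proteins. The CCAAT box (CCAAT), bound by NF-Y and common beside the CHR, was in 35.6%, 44.9% and 31.2% of the same groups and in 33.0% of all. The TCF/LEF motif CTTTGAT, the site of the partners of β-catenin, was in 1.33% of promoters of genes tested, 2.28% of all, and in 2 of the 432 genes at least 2-fold lower (0.463%). These 2 were CKAP2L, a spindle protein that fell by 1.87 from 59.6, 66.7 and 80.9 to 24.9, 17.1 and 15.4, and TIMELESS, of the replication fork, which fell by 2.06 with an _s_at probe set and by 0.54, not passing, with another. The CKAP2L window, chr2:112764610-112764859 on the minus strand, is shown with that motif in capitals. It also holds the CHR as TTTGAA and as its reverse complement TTCAAA, both left in lower case.
CKAP2L: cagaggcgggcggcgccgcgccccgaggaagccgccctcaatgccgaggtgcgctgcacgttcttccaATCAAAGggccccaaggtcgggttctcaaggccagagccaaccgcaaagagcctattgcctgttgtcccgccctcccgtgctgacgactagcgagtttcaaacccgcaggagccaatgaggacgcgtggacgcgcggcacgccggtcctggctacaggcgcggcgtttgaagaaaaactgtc
Motifs of CDX (CAATAAA) and HNF4 (CAAAGTC) factors were in 2.16% and 3.12% of promoters of genes at least 2-fold higher, in 1.85% and 2.55% of those at least 2-fold lower, and in 2.22% and 2.02% of genes tested (3.78% and 2.94% of all). A match is a run of letters and not a measured site. The window leaves out distal elements, and genes were not matched for the base composition of their promoters.

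**Figure D4:**
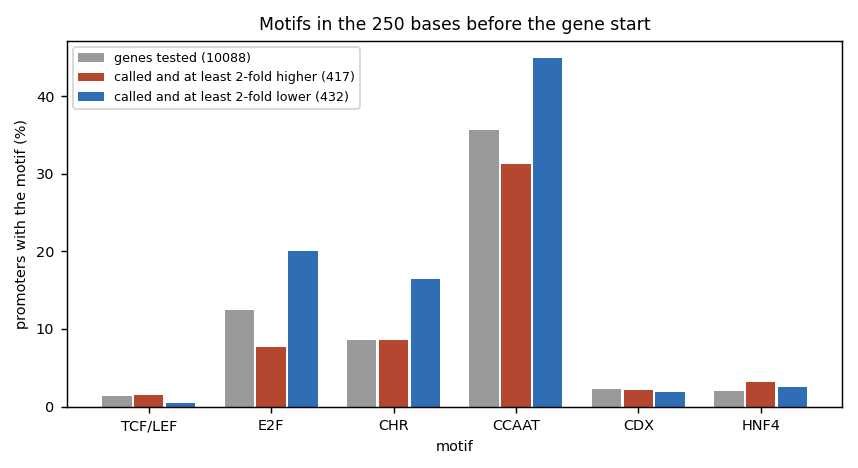
Share of promoters (percent) with each motif among 10088 genes tested (grey), 417 genes at least 2-fold higher (red) and 432 genes at least 2-fold lower (blue). The blue bars are the highest for E2F (20.1%), CHR (16.4%) and CCAAT (44.9%) and the lowest for TCF/LEF (0.463%).

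UHRF1, which guides the maintenance methyltransferase, went from 1014, 1066 and 1114 to 345.5, 346.1 and 328.3 (-1.65 ± 0.08, adjusted p = 2.74e-10), and DNMT1 itself fell by 0.94. In the list for DNA methylation and Polycomb 10 of 31 fell and 2 rose, with CBX2, PHF19 and EZH2 at -1.24, -1.10 and -0.65. Among deacetylases, demethylases and histone chaperones 12 of 43 fell and 4 rose. The chaperones of newly made histones ASF1B, CHAF1A, NASP and CHAF1B fell by 1.81, 1.69, 1.66 and 1.52, while the demethylases KDM5B and KDM6B rose by 1.20 and 0.82. The clustered histone genes, whose replication-dependent messages mostly lack poly(A) tails, did not follow: of 21 tested 5 rose and none fell, H2AC8, H2BC21 and H2BC5 by 1.28, 1.19 and 0.85.

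Among genes of nuclear transport, translation and protein turnover, nuclear transport had the most decreases. Of 51 nuclear pore and transport receptor genes 32 fell and 1 rose (median -0.42). KPNA3, an importin, went from 428.1, 426.6 and 588.7 to 203.7, 211.1 and 167.1, and XPOT, the exporter of tRNA, from 927.6, 954.6 and 952.3 to 402.3, 452.8 and 348.9. XPO1, the general exporter, fell by 0.80. Of 18 aminoacyl-tRNA synthetases 6 fell and none rose, HARS1 by 1.12 and IARS1 by 0.59. RNA polymerase I and III genes fell in 9 of 34 and rose in 4, with POLR3K at -0.71, POLR1G at -0.44 and TAF1D and RRN3 at 0.94 and 0.54; without uninduced array 2 the count of decreases was 5. Cytosolic ribosomal proteins barely moved. Of 52 tested 3 rose and none fell (median 0.12), and the median was near 0 after quantile normalization. The count of increases was 29 without induced array 2 and 0 without uninduced array 3 or induced array 1 or 3. Proteasome subunits fell in 7 of 30 and rose in 4, none by 2-fold, PSMD3 by 0.49 and PSMD8 by 0.37; the counts fell to 4 and 2 without uninduced array 2, and the count of increases was 2 without uninduced array 3 or induced array 1 or 2.

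In the early secretory route increases outnumbered decreases. Of 46 genes for translocation into the endoplasmic reticulum and for COPII and COPI coats 23 rose and 3 fell and 20 did not pass (median 0.23; 14 rose with each array centred on its median). SEC23A, a COPII coat protein, went from 701, 731.4 and 898.6 to 1874, 1922 and 1752 (1.26 ± 0.09, adjusted p = 3.76e-08), and SEC24D, SEC24A, KDELR3, SEC31A and COPG1 rose by 1.02, 0.91, 0.82, 0.71 and 0.71. SEC24C, another cargo adaptor of the same coat, fell from 472.2, 523 and 478 to 220.6, 265 and 220.7. XBP1, which drives the secretory apparatus, rose by 0.49. Lysosomal genes rose in 17 of 47 and fell in 6. TPP1, a lysosomal peptidase, went from 581.3, 526.4 and 446.2 to 1339, 1595 and 1411, MAN2B1, NEU1 and GRN rose by 0.84, 0.74 and 0.64, and CTSV, a cathepsin, fell by 1.53; without uninduced array 2 the count of decreases was 3.

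In metabolism, enzymes that handle foreign compounds, bile acids and retinoids rose in 19 of 31 and fell in 2 (median 0.53). Beside the glucuronosyltransferases, CYP3A5 rose from 1.2, 5.7 and 3.6 to 26.5, 38.5 and 31.3, and DHRS9, DHRS3 and ALDH1A1, enzymes of the retinoid path, by 2.60, 2.51 and 2.06. UGT1A6 rose by 1.97 and CYP2B6 by 1.21, while CRABP2, the carrier that delivers retinoic acid to its receptor, fell by 1.17 and ALDH1B1 by 1.17. Glutathione genes and targets of NRF2 rose in 17 of 37 and fell in 2. AKR1B10, an aldo-keto reductase of intestine, went from 24.1, 25.5 and 46.3 to 959.9, 933.6 and 1037, and AKR1C2 from 609.5, 567.2 and 528.2 to 6039, 5689 and 6244; the AKR1C genes are near copies that the probe sets may not separate, and for AKR1C1 the change of 2.66 was 1.25, not passing, with another probe set. NFE2L2, the gene of NRF2, rose by 0.38, its inhibitor KEAP1 fell by 0.47, and the classical targets NQO1 (0.06, adjusted p = 0.66), HMOX1 (0.52, adjusted p = 0.058) and TXNRD1 (0.18, adjusted p = 0.106) did not pass. GPX2, a glutathione peroxidase of crypts, fell by 0.45.

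Fatty acid oxidation and related PPAR targets rose in 9 of 25 and fell in 2 (median 0.37). CYP4F2 went from 3.6, 12.7 and 12.7 to 72.2, 66.6 and 69, ACOX2, a peroxisomal oxidase, rose by 1.58, SLC25A20, the carnitine carrier, by 1.03, and CPT1A, the gate of mitochondrial oxidation, by 0.63. PPARGC1B, a coactivator of mitochondrial genes, fell by 1.06. Subunits of the respiratory complexes fell in 16 of 59 and none rose, none by 2-fold (median -0.09; 25 fell after quantile normalization), NDUFA3 by 0.98 and SDHD by 0.37. Enzymes of serine, folate and one-carbon metabolism fell in 8 of 20 and rose in 1. TYMS, which makes thymidylate, went from 4285, 4192 and 3691 to 1262, 1391 and 1272, PHGDH, the entry to serine synthesis, fell by 0.98 and MTHFD2 by 0.77, and CTH, of cysteine synthesis, rose by 0.88.

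**Figure D5:**
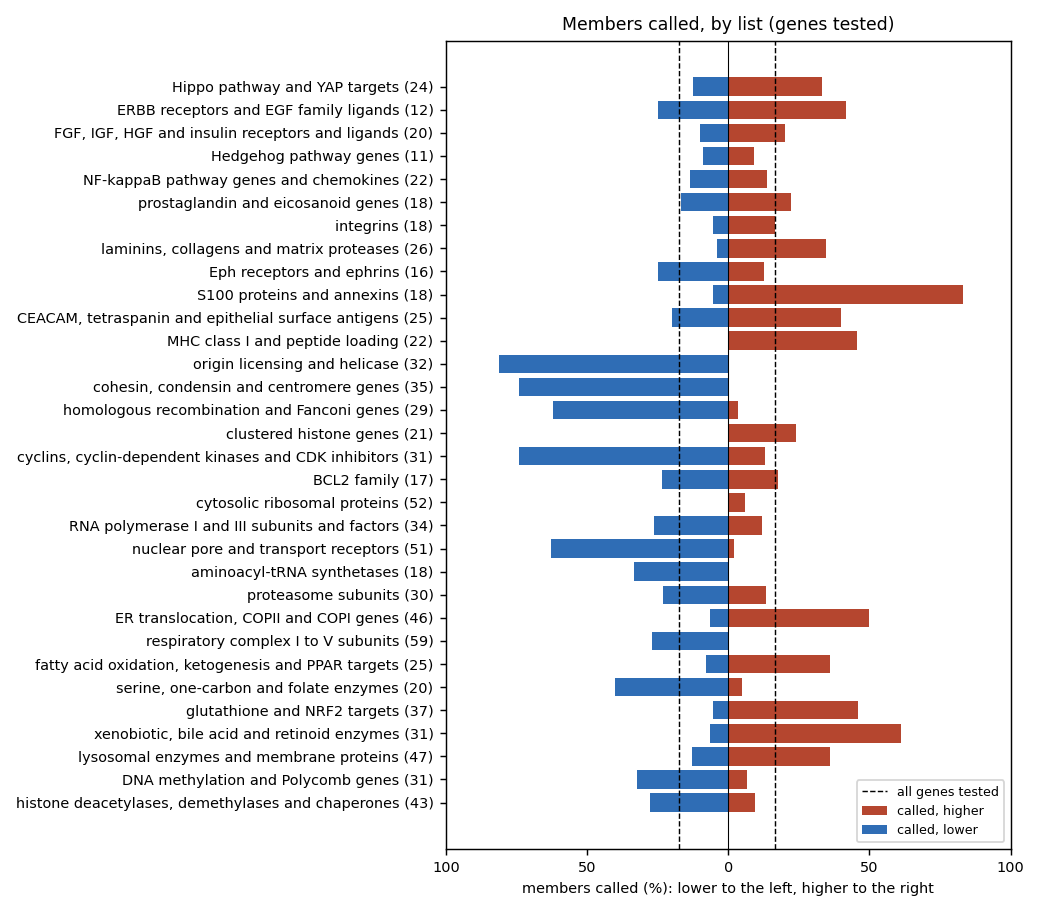
Percentage of tested members called lower (to the left, blue) or higher (to the right, red) in each list of signalling, surface, cell cycle, biosynthesis, metabolism and chromatin genes, with the number tested in brackets. Dashed lines mark the shares over all genes tested, 17.4% lower and 16.6% higher; the longest bars are the S100 proteins and annexins to the right (83.3%) and origin licensing to the left (81.2%).

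The lists share some genes, and members were read from 1 probe set each, so counts are descriptions of these 6 arrays and were not tested as sets. MAS5 signals of dim probe sets are imprecise, and fold changes that start from signals under about 10 are the least certain in size.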

How the data were processed

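RNA of 12 samples was hybridised to Affymetrix U133 Plus 2.0 arrays, and 6 arrays, 3 per group, were compared. The deposited values are linear signal intensities per probe set, computed by the authors with MAS5 in GCOS per the submitters' processing notes (versions not given in the sources used here); each array has a trimmed mean near 100. Of 54675 probe sets, 41097 carried 1 gene symbol, 1801 several and 11777 none; none was named from the last 2 kinds. Signals under 1 were set to 1 and log2 taken. Each gene was read from the probe set that was brightest on average (log2 scale, 12 arrays) and kept if that mean was above the median over probe sets (log2 3.35, signal 10.2), which left 12386 genes. limma 3.58.1 in R 4.3.3 fitted 4 group means to the 12 arrays with a variance trend, and Benjamini-Hochberg adjusted p-values over all genes under 0.05 were called; every adjusted p is from this test. Fold changes are ratios of geometric means.

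The genes and lists were chosen with earlier results of these data known, and lists are described by counts and medians. Named were all CTNNB1 probe sets, the 24 largest called changes per direction without overlap, the 12 largest regulators per direction, up to 6 called members per list and direction, members against their list, markers, and up to 3 promoters per motif. ADH1C and the genes given as not passing were chosen after their values were seen. On simulated data for this contrast over 12386 genes, the test called 71% of 100 genes altered 2-fold and 88% of 100 altered 4-fold, with 12 false among 171 calls. Far fewer genes were altered there than were called in the data, and errors were drawn independently. These rates therefore need not hold for the real comparison. Same-numbered arrays of the groups did not deviate together (r = -0.04, 0.02 and -0.08), so numbers were not taken as pairs. Alternatives covered normalization, offset, filter, probe sets, the model and each array left out.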

Additional observations from a re-analysis of the deposited data

How the results depend on the processing

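Against 4217 calls (2059 higher, 2158 lower), quantile normalization gave 4244, median centring 3547 (1481 and 2066) and no filter 3883. Testing every probe set gave 6853 (3325 and 3528), and requiring 2-fold left 1068 (533 and 535). Without _x_at and _s_at probe sets 9549 genes were tested and 2968 called, and counts in many lists were lower, such as 16 of 22 for origin licensing and 3 of 6 for keratins. With each array left out in turn, 3543 to 4011 genes were called, 1739 to 1997 higher and 1804 to 2026 lower; 2927 were called in every such fit. With the replicate number as a block 3950 genes were called; the check of pairing gave no support for it. The change of the brightest CTNNB1 probe set ran from -4.49 to -4.69. Dim probe sets near the floor limit the size of a fold change.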

Other observations

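Further genes passed only with the filter set on the 6 arrays of the line, a choice made after seeing the data. TRHDE, a peptidase of the cell surface, went from 1.7, 8.5 and 3.5 to 26.9, 50.3 and 38. LYZ, the lysozyme of Paneth cells and of leukocytes, used above as a leukocyte marker, went from 10.8, 15.9 and 0.7 to 50.3, 41.8 and 46.6 (3.05 ± 1.11, adjusted p = 0.0436 by limma), while the Paneth cell defensin DEFA6 fell by 3.36. RBP5, a retinol-binding protein, went from 6.8, 6.1 and 7.5 to 23.4, 36.4 and 28.4. C2CD4B went from 45.1, 33.1 and 43.6 to 12.3, 7.2 and 3, in the direction of its neighbour in name C2CD4A. TRHDE, LYZ and RBP5 entered through their high induced arrays and C2CD4B through its high uninduced arrays. Their choice thus favoured a separation of the groups, and their p-values lend no support.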
